A study of Mus musculus with 249 samples.

Results

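Smpd1 and Apbb1 are protein-coding genes that lie next to each other on mouse chromosome 7, and their transcript levels were followed across the brains of an F2 cross. They were chosen from these same data because their levels moved together between animals, so their levels and their correlation are described here without a test. Each gene was represented by 1 probe that named it alone, which makes 2 probes of 23388 on the array table and 2 of the 11485 genes that could be tested. The cross was made from C57BL/6J and C3H/HeJ parents. All animals of both sexes lacked ApoE, so there was no animal with the gene, and all ate a Western diet rich in fat between the ages of 8 and 24 weeks. Each array compared the brain RNA of 1 mouse, labelled with Cy3, with a pool of equal parts of RNA from every sample, labelled with Cy5. The 249 arrays form a single group of 1 array per animal. One of them, animal 144, was left out, and 248 animals were analysed. The labels do not tell the sex or genotype of single animals, nor how arrays were batched.

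Smpd1 encodes acid sphingomyelinase, the lysosomal enzyme that cleaves sphingomyelin into ceramide and phosphocholine. Sphingomyelin is a main lipid of plasma membranes and myelin, and loss of the enzyme in humans causes Niemann-Pick disease types A and B, in which the lipid accumulates in lysosomes. Apbb1 encodes Fe65, a neuronal adaptor protein that binds the cytoplasmic tail of the amyloid precursor protein APP and, through other domains, nuclear and cytoskeletal partners such as the acetyltransferase Kat5. The proteins act in different places in the cell, and the genes share their position.

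In the RefSeq gene order of assembly GRCm38.p6 no annotated gene lay between them. Smpd1 is transcribed from the plus strand and Apbb1 from the minus strand, so that their 3' ends face each other and their starts lie apart. Their promoters are shown as the regulatory sequence nearest the start of each member. The 250 bases before each RefSeq start are given 5' to 3', in lower case, with matches to the motifs searched in capitals.
Smpd1, chr7:105554110-105554359, plus strand: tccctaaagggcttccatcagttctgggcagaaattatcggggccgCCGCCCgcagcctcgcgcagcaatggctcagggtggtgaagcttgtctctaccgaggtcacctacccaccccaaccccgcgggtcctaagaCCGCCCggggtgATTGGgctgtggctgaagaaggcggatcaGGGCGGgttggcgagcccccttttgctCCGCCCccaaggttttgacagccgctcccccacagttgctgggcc
Apbb1, chr7:105581492-105581741, minus strand: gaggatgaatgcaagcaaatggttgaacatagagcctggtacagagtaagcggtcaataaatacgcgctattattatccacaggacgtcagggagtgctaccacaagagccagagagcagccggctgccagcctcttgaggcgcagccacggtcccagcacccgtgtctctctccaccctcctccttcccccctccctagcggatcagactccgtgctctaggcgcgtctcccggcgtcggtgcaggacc
The capitals mark the GC box GGGCGG and the CCAAT box CCAAT, each read on both strands. The window of Smpd1 held 4 GC boxes and 1 CCAAT box. The window of Apbb1, taken at the first of 3 annotated starts, held neither, and the other starts had 1 GC box and 1 CCAAT box between them. Over 32851 promoters of 27025 genes the GC box was found in 32.7% and the CCAAT box in 33.9%. The E-box CACGTG, the core of the element bound by the lysosomal regulator Tfeb, was in neither window. Nor was the TATA box TATAAA. Of all promoters 6.02% held the E-box and 12.4% the TATA box. Among 74 promoters of the lysosomal list 18 held the E-box, or 24.3%. The windows were rich in G and C, at 64.8% for Smpd1 and 59.2% for Apbb1, against a median of 52.4% over all promoters.

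Values were used as deposited and read as log10 ratios of an animal to the pool, in which 0 is the level of the pool and 0.301 is a doubling. Smpd1 had its lowest value of -0.333 in animal 336, a median of -0.000685 and its highest value of 0.126 in animal 178. Apbb1 had its lowest value of -0.294 in animal 151, a median of 0.00508 and its highest value of 0.360, again in animal 178. Both genes were thus close to the pool in most animals, with a longer tail downward for Smpd1 and a single animal far above the rest for Apbb1. Smpd1 was above the pool in 124 animals and below it in 124. Apbb1 was above it in 134 and below it in 114.

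The spread between animals was modest. The SD was 0.0631 for Smpd1 and 0.0724 for Apbb1 over 248 animals, against a median SD of 0.0546 over all genes, which placed them at percentiles 63.1 and 74.3. From percentile 5 to percentile 95 the level changed 1.56-fold for Smpd1 and 1.59-fold for Apbb1. From the lowest to the highest animal it changed 2.88-fold for Smpd1 and 4.51-fold for Apbb1. The array of animal 178 also had the widest spread over probes of those analysed, an SD of 0.258 against a median of 0.0764. In animal 144, whose array SD was 0.392, Smpd1 was at -0.123 and Apbb1 at -0.563.

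The tail of Smpd1 could be described as a separate small set of animals. A mixture of 2 normal distributions described Smpd1 better than 1 by 24.0 units of the Bayesian information criterion (BIC), with means of -0.180 and 0.00200 that lay 3.57 within-component SDs apart. It placed 9 animals in the low component and 239 in the other. For Apbb1 the gain was 7.55 units, below the 10 asked for here, so Apbb1 was treated as 1 distribution. A mixture in the proportions 1:2:1, the genotype proportions of an F2 locus, gave no gain for either gene, with BIC differences of -1.68 for Smpd1 and -10.2 for Apbb1.

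The 9 animals with low Smpd1 were also low in Apbb1. Their arrays had an SD over probes from 0.0803 in animal 272 to 0.244 in animal 213, against a median of 0.0764. The part of array spread in these low values was not tested. Animal 336 had Smpd1 at -0.333 and Apbb1 at -0.187. Animal 207 had Smpd1 at -0.222 and Apbb1 at -0.258. Animal 213 had Smpd1 at -0.215 and Apbb1 at -0.233. Smpd1 was the lower of the pair in animal 336, and Apbb1 was the lower in animals 207 and 213. In the other 6 animals of the component Smpd1 ran from -0.203 to -0.144 and Apbb1 from -0.294 to -0.139, so all 9 were below the pool for both genes. Because Smpd1 fell into these components, its correlations below are over the 239 animals outside the low one, while correlations with Apbb1 as the reference are over all 248.

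**Figure D1:**
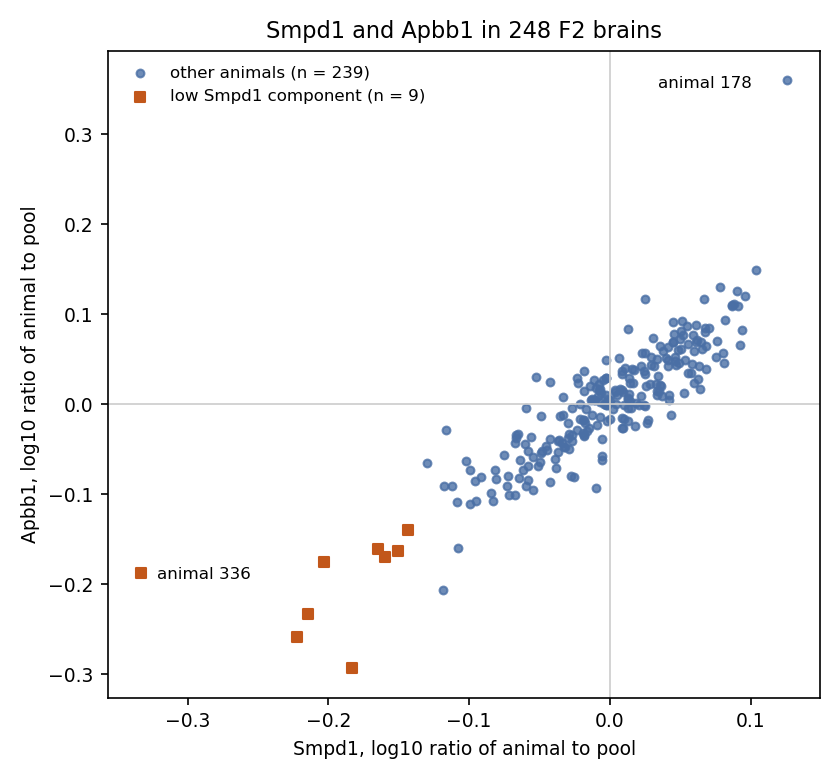
Each point is 1 of 248 animals, with the log10 ratio of animal to pool for Smpd1 on the horizontal axis and for Apbb1 on the vertical axis. The 239 blue points lie along a diagonal (r = 0.858), the 9 orange squares of the low Smpd1 component lie at the lower left, and animal 178 stands alone at the upper right.

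Across the 239 animals Smpd1 and Apbb1 had a Pearson r of 0.858 and a Spearman rho of 0.871. By animal number, r was 0.835 over the 121 animals with lower numbers and 0.872 over the 118 with higher numbers. It was 0.872 without animal 178. Within the low component of 9 animals r was 0.259 and rho 0.733. The scatter plot of the pair shows this as a narrow diagonal with a looser lower end. The differences between the genes in the same animal had a mean size of 0.0232 on the log10 scale and an SD of 0.0319 over the 239 animals. The SDs of the genes themselves, over 248 animals, were 0.0631 and 0.0724.

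Adjacent genes on the autosomes were rarely this close. Over 10445 pairs of neighbouring measured genes the median r was 0.0474, and 24 pairs, this one included, reached at least 0.858. These were 0.230% of adjacent pairs. Over all pairs of genes tested 13901, or 0.0211%, had an r of at least 0.858. Apbb1 had rank 4 of 11484 genes by r with Smpd1, while Smpd1 had rank 1 for Apbb1 over the same 239 animals. The level of Smpd1 had an r above 0.8 with 20 genes, of which 2, Apbb1 included, lay on chromosome 7, and over the same 239 animals the level of Apbb1 with 16, of which Smpd1 was the only one on chromosome 7.

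Apbb1 aside, the 10 genes most like Smpd1 came from several chromosomes, and none lay on chromosome 7. The closest was Ppp2r5d, a regulatory subunit of the phosphatase PP2A on chromosome 17, with r = 0.870. It was followed by L3mbtl2, a Polycomb-group protein, with r = 0.862, and by C1qtnf4, a secreted protein of the C1q and TNF-related family, with r = 0.861. The others of these 10 were the co-chaperone Sgta, the sugar-nucleotide transporter family member Slc35c2, the dicarboxylate transporter Slc13a3, the prohormone convertase inhibitor Pcsk1n, the ubiquitin ligase Rnf187, the huntingtin-associated protein F8a and the deubiquitinase Usp20, with r from 0.835 to 0.851. For Apbb1 over 248 animals, Smpd1 aside, the closest were C1qtnf4 at 0.875, the hydrolase-fold protein Abhd8 at 0.859, the sorting nexin Snx21 at 0.856 and the neuronal elongation factor Eef1a2 at 0.851. Usp20, Rnf187, Slc35c2, L3mbtl2, Pcsk1n and the ectonucleotidase Entpd2 completed its 10, with r from 0.837 to 0.848. These genes were chosen by their r, so it is given without a test.

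A test across all genes gave the scale of these relations. Every gene was fitted with limma on the level of a member in units of its SD over 248 animals, with Benjamini-Hochberg adjustment over all genes, and a gene was called at an adjusted p under 0.05. With Smpd1, 7397 of 11484 genes were called, or 64.4%, of which 33.6% of all genes were positive and 30.8% negative. With Apbb1, 7269 were called, or 63.3%, with 34.0% positive and 29.3% negative. A call was therefore the usual outcome for a gene on this array, and the counts below are read against these shares. The p-values measure the spread between these animals, and the number of arrays limits their precision. The 2 fits share all their arrays, and their values are given side by side.

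The levels followed the broad variation of the arrays. The first principal component of all other genes held 15.5% of their variance and had r = 0.586 with Smpd1 and 0.624 with Apbb1. The third, with 7.85% of the variance, had r = -0.559 with Smpd1 and -0.630 with Apbb1. The fourth separated them, with r = 0.485 for Smpd1 and 0.0829 for Apbb1. With the first 2 components as covariates the r of the pair was still 0.793, with 3 it was 0.449, with 5 it was 0.364 and with 10 it was 0.0834. The rank of Apbb1 among the genes most like Smpd1 fell with it, from 4 to 15, 274, 338 and 2792. With 5 components removed, 20.5% of the variance of Smpd1 and 18.7% of that of Apbb1 were left. What the components stand for was not tested.

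**Figure D2:**
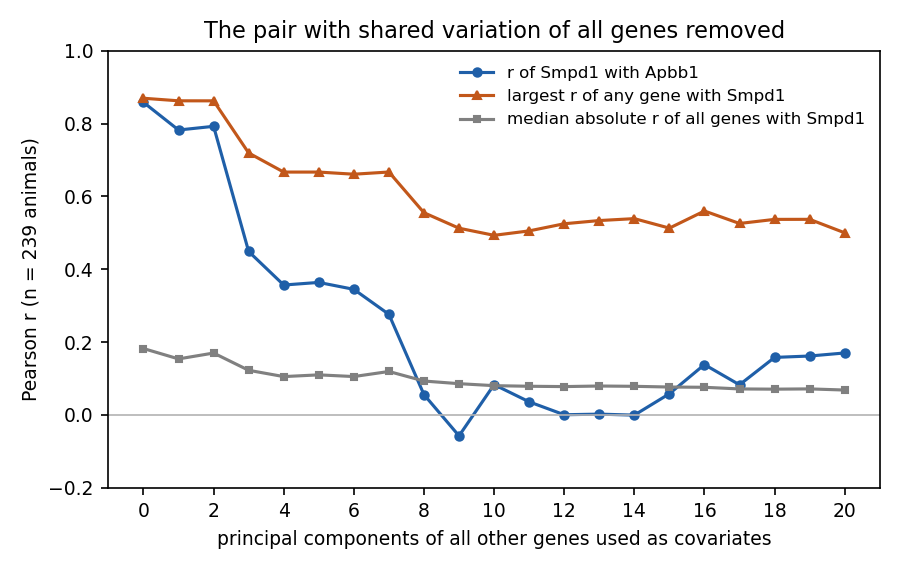
The horizontal axis is the number of principal components of all other genes used as covariates, and the vertical axis is Pearson r over 239 animals. The r of Smpd1 with Apbb1 (blue) falls from 0.858 to 0.0560 at 8 components, while the largest r of any gene with Smpd1 (orange) stays above it and the median absolute r of all genes (grey) starts at 0.182.

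The animal number and the median and SD of the array were at most weakly related to the levels. These 6 relations were tested together by permutation, with p adjusted over the 6. Smpd1 had r = -0.212 and rho = -0.204 with the animal number (p = 0.00105, adjusted p = 0.00315), and Apbb1 had r = -0.166 and rho = -0.183 (p = 0.00856, adjusted p = 0.0128). Neither held on both sides of the middle animal number, where r was -0.153 and 0.171 for Smpd1 and -0.0521 and 0.154 for Apbb1. With the median of the array r was 0.185 for Smpd1 (adjusted p = 0.00784 by permutation) and 0.237 for Apbb1 (adjusted p = 0.00222). For Apbb1 it was 0.135 without the 2 animals farthest from the median of Apbb1. With the SD of the array over probes r was 0.158 for Smpd1 (adjusted p = 0.0164 by permutation). It fell to 0.0928 without the 2 animals farthest from the median of Smpd1. For Apbb1 r was -0.0107 (adjusted p = 0.861), with opposite values of 0.290 and -0.283 among lower and higher animal numbers. The part of these measures in the correlation of the pair was not tested.

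The neighbourhood of the pair on chromosome 7 was described by the 15 nearest measured genes on each side, 30 in all. Places are counted outward from the pair. Clusters of olfactory receptor and Trim genes lie on the Smpd1 side from place 4 outward. On the Apbb1 side olfactory receptor genes lie from place 8 outward. With Smpd1, 17 of the 30 neighbours were called (56.7%, against 64.4% of all genes), 5 with a positive and 12 with a negative coefficient. With Apbb1, 14 were called (46.7%, against 63.3%), 4 positive and 10 negative. The median r of the neighbours was -0.0257 with Smpd1 and -0.0837 with Apbb1, against 0.0322 and 0.0132 over all genes. As a group, then, the genes around the pair were called no more often than genes elsewhere.

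The measured genes at place 1 on each side of the pair were not called with either member. Cckbr, the receptor for gastrin and cholecystokinin, is the nearest measured gene on the Smpd1 side, and had levels from -0.0835 to 0.146 and r = 0.0239 with Smpd1 and -0.0500 with Apbb1. Hpx, the haem-binding plasma protein hemopexin, is the nearest on the Apbb1 side, and had r = 0.168 with Smpd1 and 0.0542 with Apbb1. In the limma fits its adjusted p was 0.176 with Smpd1 and 0.465 with Apbb1. The next genes on that side, Trim3, a ubiquitin ligase of the brain, and Timm10b, a mitochondrial import chaperone, had adjusted p between 0.0715 and 0.643 in the limma fits with either member. Calls among these genes depended on the animals included. Without the 9 animals of low Smpd1 the limma fits called Hpx (adjusted p = 0.0169) and Trim3 (0.0250) with Smpd1, and Trim3 (9.43e-07) with Apbb1, with positive coefficients. At place 2 on the Smpd1 side Cnga4, a subunit of the olfactory cyclic nucleotide-gated channel, was called with both members and negative, with limma adjusted p = 2.38e-06 with Smpd1 and 3.35e-05 with Apbb1. The 10 genes at places 1 to 5 on either side were called in 30% with Smpd1 and in 30% with Apbb1, and the 20 at places 6 to 15 in 70% and 55%. At places 16 to 50 the shares were 58.6% and 54.3%, and on other chromosomes 64.4% and 63.5%. With 10 genes in the nearest class these shares rest on few genes.

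Ilk, Taf10 and Tpp1, which follow one another at places 4 to 6 on the Apbb1 side, were called and positive with both members, and were so also without the 12 arrays of largest spread. Ilk encodes integrin-linked kinase, which couples integrins to the actin cytoskeleton. It was a gene of small spread, from -0.0837 to 0.0940 with a median of 0.000769. Its r was 0.576 with Smpd1 and 0.673 with Apbb1, its rho 0.560 and 0.676, and the permutation p was 1e-05 for each. The limma coefficients were 0.0148 ± 0.00135 (SE) log10 units per SD of Smpd1 (adjusted p = 3.79e-22) and 0.0171 ± 0.00123 per SD of Apbb1 (adjusted p = 3.35e-31). Without the 2 animals farthest from the median of the member r was 0.558 and 0.681.

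Taf10 encodes a subunit of the general transcription factor TFIID and of the SAGA complex. Its levels ran from -0.196 in animal 336 to 0.250 in animal 178, which were also the animals of lowest and highest Smpd1. Its r was 0.477 with Smpd1 and 0.434 with Apbb1, with adjusted p = 5.99e-17 and 4.46e-12 in the limma fits. Without the 2 farthest animals r was 0.451 and 0.380.

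Tpp1 encodes tripeptidyl peptidase 1, a lysosomal protease lost in a childhood form of neuronal ceroid lipofuscinosis, and is a neighbour of the pair as well as a lysosomal gene. Its levels ran from -0.229 to 0.157, and r was 0.351 with Smpd1 and 0.361 with Apbb1. The limma coefficients were 0.0279 ± 0.00438 (SE) per SD of Smpd1 (adjusted p = 3.85e-09) and 0.0268 ± 0.00440 per SD of Apbb1 (adjusted p = 1.66e-08). With 5 principal components as covariates both turned negative, at -0.0382 and -0.0564, whereas those of Ilk and Taf10 kept their sign.

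Among the other called neighbours Trim6, a ubiquitin ligase, was positive with both members, with r = 0.226 and 0.300, and its coefficients turned negative with 5 components. Without the 12 arrays of largest spread its coefficient went from 0.0270 to 0.00942 per SD of Smpd1 (limma adjusted p = 0.0174) and from 0.0265 to 0.00671 per SD of Apbb1, where it was no longer called (adjusted p = 0.102). Olfr707 was positive with Smpd1 only (r = 0.143, limma adjusted p = 0.0410), and reached r = 0.135 and adjusted p = 0.0520 in the limma fit with Apbb1. The genes that were negative with both members had small r. Olfr661 had r = -0.276 with Smpd1 and -0.302 with Apbb1. Cnga4 had -0.226 and -0.272. Gvin1, an interferon-inducible GTPase, had -0.225 and -0.267. Trim30a and Trim34a, interferon-inducible members of the Trim family, had -0.200 and -0.197 with Smpd1 and -0.236 and -0.203 with Apbb1.

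Olfr711 had r = -0.210 with Smpd1 and -0.230 with Apbb1, Usp17la -0.121 and -0.184, Olfr695 -0.116 and -0.167, and Olfr694 -0.0892 and -0.138. Trim30d was called with Apbb1 alone (r = -0.155), and Olfr702 (r = -0.0878), Olfr2 (r = -0.0550) and Olfr649 with Smpd1 alone. The difference between the members was not tested for these. The coefficient of Olfr649 was -0.00507 over 248 animals and 0.00214 without the 9 animals of the low component. Leaving out those 9 animals left 13 neighbours called with Smpd1, 11 of them among the 17, and 14 with Apbb1, 11 of them among the 14. Of all genes 59.4% were then called with Smpd1 and 61.9% with Apbb1. The calls with Smpd1 that were lost were Usp17la, Olfr649, Olfr694, Olfr695, Olfr702 and Olfr2, and those with Apbb1 were Usp17la, Olfr694 and Olfr695. Without the 12 arrays of largest spread 13 neighbours were called with Smpd1, 10 of them among the 17, and 13 with Apbb1, 9 of them among the 14. The shares of all genes called were 60.5% and 58.3% there. Usp17la, Olfr694 and Olfr695 lost their calls with both members there, Trim30a, Olfr649, Olfr707 and Olfr2 with Smpd1, and Trim30d and Trim6 with Apbb1. Genes of the olfactory receptor and Trim clusters have close copies, and since probe sequences were not used here, their values may include signal of related genes.

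**Figure D3:**
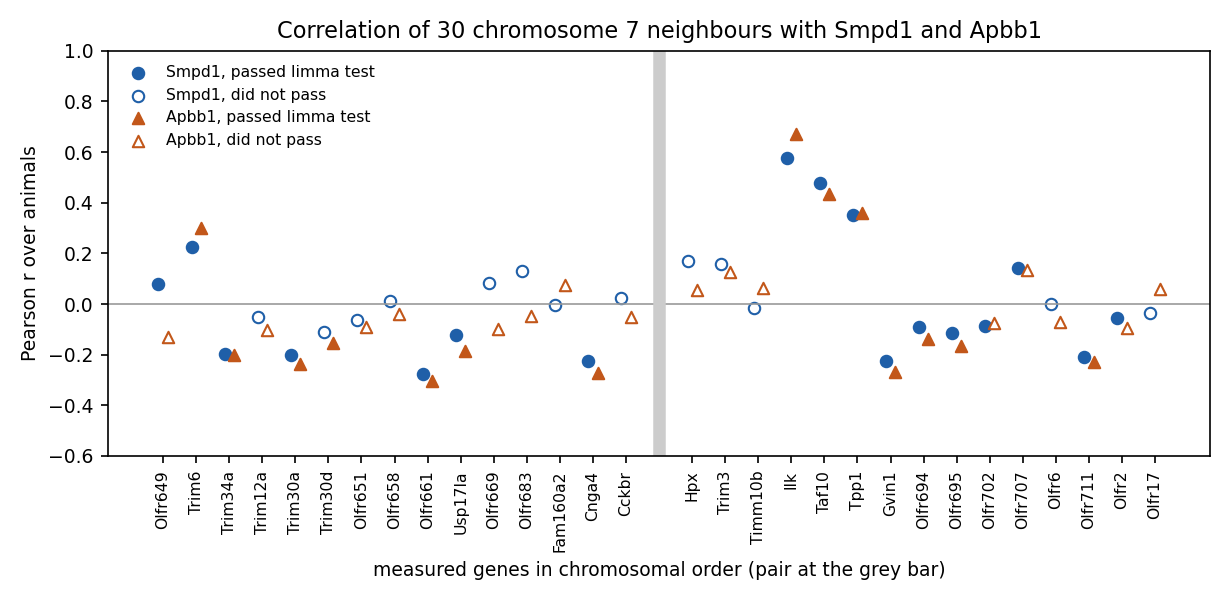
The 30 nearest measured genes on chromosome 7 are placed in chromosomal order on the horizontal axis, 15 on each side of a grey bar that marks the pair, and the vertical axis is Pearson r with Smpd1 (circles, n = 239) or Apbb1 (triangles, n = 248). Filled symbols passed the limma test over 248 animals. Ilk reaches 0.576 and 0.673 while Cckbr and Hpx, next to the bar, are unfilled.

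A joint limma fit on both levels asked which relations went beyond what the members share. In it the share of all genes called was 40.6% for Smpd1 given Apbb1 (20.4% positive, 20.2% negative) and 40.3% for Apbb1 given Smpd1 (22.3% positive, 18.1% negative). Of the 30 neighbours 6 were called for Smpd1 (1 positive, 5 negative) and 7 for Apbb1 (5 positive, 2 negative). Ilk followed Apbb1, with a coefficient of 0.0183 ± 0.00266 (SE) per SD of Apbb1 (adjusted p = 1.83e-09) and -0.00136 ± 0.00266 per SD of Smpd1 (adjusted p = 0.710). Taf10 followed Smpd1, with 0.0267 ± 0.00538 per SD of Smpd1 (adjusted p = 1.44e-05) and -0.00396 ± 0.00538 per SD of Apbb1 (adjusted p = 0.595). The contrast between these 2 neighbouring genes remained without animals 151 and 178, the 2 farthest from the median of Apbb1, where the limma adjusted p was 6.11e-10 for Ilk with Apbb1 and 8.14e-10 for Taf10 with Smpd1. There Taf10 was also negative with Apbb1 (adjusted p = 0.00649 in the same limma fit). The joint fit of these genes without animal 336, the lowest in both Smpd1 and Taf10, is not given here.

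Trim3, Fam160a2, Timm10b and Olfr702 were called in the joint fit with opposite signs, negative with Smpd1 and positive with Apbb1. All of them had their highest level in animal 178, 0.440 for Trim3, 0.295 for Fam160a2, 0.317 for Timm10b and 0.389 for Olfr702. Without animals 151 and 178 Trim3 fell from 0.0407 to 0.0214 per SD of Apbb1 (adjusted p = 0.00443 by limma). Timm10b went from 0.0200 to 0.00253 (adjusted p = 0.782), Fam160a2 from 0.0350 to 0.0182 (adjusted p = 0.0780) and Olfr702 from 0.0509 to 0.0272 (adjusted p = 0.198). On the Smpd1 side Trim3 (adjusted p = 0.00118), Fam160a2 (0.0204) and Olfr702 (0.00826) were still called by limma without those animals, and Timm10b was not (0.435). Of the 30 neighbours 8 were highest in animal 178 and 2 lowest, while 19.5% of all genes were highest in it and 17.8% lowest. Without those 2 animals 7 neighbours were called for Smpd1 given Apbb1, 5 of them among the 6, and 5 for Apbb1 given Smpd1, 4 of them among the 7. The share of all genes called for Apbb1 given Smpd1 was then 33.0%. That for Smpd1 given Apbb1 without the same animals is not given here.

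The lysosomal genes, to which Smpd1 belongs by function, leaned to the positive side with both members. Of 75 listed genes other than Smpd1, 61 were measured. With Smpd1, 40 were positive and 9 negative (80.3% called, against 64.4% of all genes), and with Apbb1, 36 were positive and 9 negative (73.8%, against 63.3%). The median r was 0.196 with Smpd1 and 0.201 with Apbb1, against 0.0322 and 0.0132 over all genes. The medians with Smpd1 and with Apbb1, which is no lysosomal gene, were close. In the joint fit 22 lysosomal genes were positive and 2 negative for Smpd1 given Apbb1 (39.3% called, against 40.6%), and 16 were positive and 17 negative for Apbb1 given Smpd1 (54.1%, against 40.3%).

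Among the lysosomal genes of largest r, Atp6v0a1, a subunit of the proton pump that acidifies lysosomes and synaptic vesicles, had r = 0.655 with Smpd1 and 0.604 with Apbb1, with coefficients that turned negative with 5 principal components. Glb1, the lysosomal beta-galactosidase, had r = 0.642 and 0.697. Hexa, the alpha subunit of beta-hexosaminidase that degrades GM2 ganglioside, had 0.629 and 0.731. Neu1, the lysosomal sialidase, had 0.607 and 0.677. The coefficients of Glb1 and Hexa stayed positive with 5 components, at 0.0136 and 0.0493 per SD of Smpd1 and 0.0174 and 0.0541 per SD of Apbb1. Cln6, a membrane protein whose loss causes a neuronal ceroid lipofuscinosis, had 0.598 and 0.441, and the cysteine protease Ctsf had 0.595 and 0.638.

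Asah1, the acid ceramidase that takes up the ceramide made by Smpd1 in the lysosome, was the most negative lysosomal gene, with r = -0.568 with Smpd1 and -0.643 with Apbb1. Its limma coefficients were -0.0286 ± 0.00309 (SE) per SD of Smpd1 (adjusted p = 8.88e-17) and -0.0362 ± 0.00275 per SD of Apbb1 (adjusted p = 5.72e-29). With 5 principal components as covariates they were -0.00295, no longer called, and -0.0171. In the joint fit Asah1 was negative with Apbb1 (adjusted p = 1.2e-13 by limma) and positive with Smpd1, at 0.0161 (adjusted p = 0.0190). Psap, the precursor of the saposins that present sphingolipids to these enzymes, was positive, with r = 0.500 and 0.560. Tfeb, the transcription factor that controls many lysosomal genes, had r = 0.414 and 0.365. The protease Ctsl at -0.530 and -0.616 and the membrane protein Cd63 at -0.394 and -0.473 were negative. Other proteases were positive, such as Ctsd at 0.531 and 0.535 and Lgmn at 0.463 and 0.540. The membrane protein Cd68 was also positive, at 0.317 and 0.207. Tfeb, Ctsl, Cd63, Ctsd, Lgmn and Cd68 were picked out after their values were seen.

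**Figure D4:**
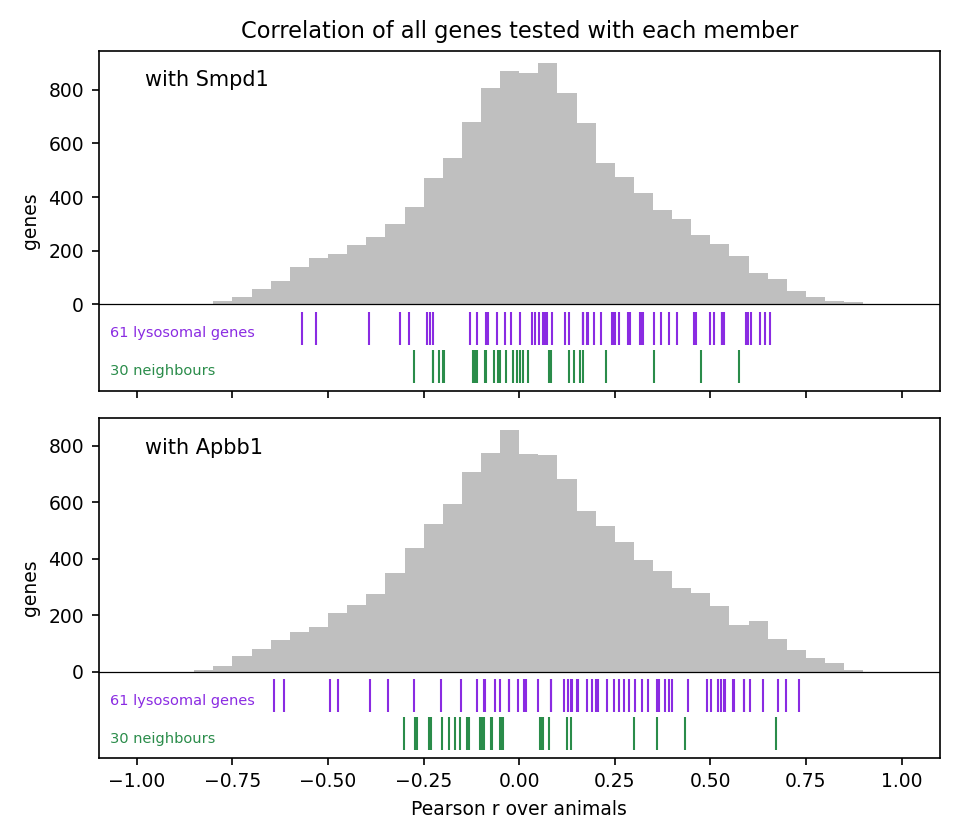
The grey bars count all 11484 genes tested by their Pearson r with Smpd1 (upper panel, n = 239 animals) and with Apbb1 (lower panel, n = 248), in bins of r. The purple ticks are the 61 measured lysosomal genes, with medians of 0.196 and 0.201, and the green ticks are the 30 neighbours on chromosome 7, with medians of -0.0257 and -0.0837.

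Genes of sphingolipid metabolism were called about as often as other genes. Of 37 listed, 31 were measured. With Smpd1, 16 were positive and 5 negative (67.7%, against 64.4%), and with Apbb1, 15 and 5 (64.5%, against 63.3%), with median r of 0.0586 and 0.108. B4galnt1, which makes GM2 and GD2 gangliosides, had r = 0.572 with Smpd1 and 0.640 with Apbb1, and Kdsr, a reductase of the first steps of sphingolipid synthesis, had 0.528 and 0.623. Smpdl3a, a relative of acid sphingomyelinase in sequence that acts on nucleotides, had -0.513 and -0.554, and its coefficients turned positive with 5 principal components. The other sphingomyelinases were positive or near 0. Smpd3, the neutral enzyme of the brain, had 0.351 and 0.445, Smpd2 had 0.253 and 0.352, and Smpd4 was not called (0.0586 and 0.0368). These 3 were named for their kinship to Smpd1, with their values in view.

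APP and its binding partners, the setting in which Apbb1 acts, were measured for 24 of 35 listed genes. With Apbb1, 10 were positive and 7 negative (70.8%, against 63.3% of all genes), and with Smpd1, 10 and 9 (79.2%, against 64.4%). App itself was lower where the members were higher, with r = -0.592 with Smpd1 and -0.603 with Apbb1, although with 5 components its coefficient went to -0.00901 on Smpd1, no longer called, and to 0.00697 on Apbb1. Its relative Aplp1 was opposite, with r = 0.537 and 0.648, its coefficient on Smpd1 turning negative with 5 components. Vldlr, a reelin receptor that Fe65 can bind together with App, had -0.605 and -0.659. Apba2, an adaptor that binds the same tail of App, had 0.495 and 0.621, with a coefficient on Smpd1 of -0.00466 with 5 components, and Bace2, a protease related to beta-secretase, had 0.459 and 0.446, with neither called with 5 components. Apbb3, the measured paralog of Apbb1, had r = 0.279 with Smpd1 and 0.433 with Apbb1. Kat5, which joins Apbb1 in the nucleus, had r = -0.0392 with Smpd1 and -0.00502 with Apbb1. Apbb3 and Kat5 were named for their roles, with their values in view.

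Markers of brain cell types were looked at because whole brain RNA mixes many cells. A lower level in such RNA cannot be told apart from fewer cells that express the gene. In each marker list with more than 1 called marker, the called markers had both signs. The counts below stand against the 64.4% of all genes called with Smpd1 and 63.3% with Apbb1. Of 6 neuronal markers measured 3 were positive and 2 negative with each member. The negative ones were Snap25, a synaptic vesicle fusion protein, at r = -0.567 and -0.718 and Nefm, a neurofilament subunit, at -0.418 and -0.584. The positive ones, named with their values in view, were Eno2 at 0.379 and 0.393, Tubb3 at 0.299 and 0.228 and Map2 at 0.213 and 0.406. Of 7 oligodendrocyte markers 5 were positive and 1 negative with Smpd1 and 4 and 1 with Apbb1, with Cnp, an enzyme of myelin, at 0.621 and 0.669 and Aspa, which degrades N-acetylaspartate, at -0.530 and -0.557. Of 8 microglial markers 5 were positive and 2 negative with Smpd1 and 5 and 1 with Apbb1. The complement subunit C1qa had 0.581 and 0.657, Csf1r 0.459 and 0.455, and the protease Ctss -0.312 and -0.496.

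Of 10 endothelial markers 5 were positive and 2 negative with Smpd1 and 6 and 2 with Apbb1, with Cldn5, a tight junction protein, at 0.528 and 0.565 and the efflux pump Abcb1a at -0.552 and -0.716. Of 9 astrocyte markers 2 were positive and 3 negative with each member. The gap junction proteins Gjb6 and Gja1 had r = -0.311 and -0.279 with Smpd1 and -0.293 and -0.313 with Apbb1. The positive ones, named with their values in view, were Fgfr3 at 0.236 and 0.270 and Slc1a3 at 0.0919 and 0.223. Markers of red cells, cerebellum and pituitary, whose share depends on blood and dissection, were called in 3 of 5, 5 of 8 and 1 of 6 with Smpd1 and in 3 of 5, 3 of 8 and 1 of 6 with Apbb1. Of the 5 red cell markers 2 were positive and 1 negative with Smpd1, and 1 and 2 with Apbb1. Hbb-b1 had r = -0.208 and -0.176, and Hbb-b2, not called with Smpd1, had -0.193 and -0.159. Of the 8 cerebellar markers 2 were positive and 3 negative with Smpd1, and 1 and 2 with Apbb1. Gabra6 had r = -0.149 and -0.208. Calb1, expressed in Purkinje cells, had r = -0.430 and -0.512. Pcp2, another Purkinje cell gene, was not called (0.0532 and 0.0218), and Cbln1 was positive (0.149 and 0.167). Pcp2 and Cbln1 were named with their values in view. Pitx1 was the 1 called pituitary marker, positive with r = 0.149 with Smpd1 and 0.138 with Apbb1 (limma adjusted p = 0.0218 and 0.0451). The hormone genes Prl and Tshb were not called, with r between -0.0623 and -0.0416. The part of cell makeup in the pair's levels was not tested.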

How the data were processed

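Brain RNA of 249 animals was measured on arrays with 2 colours. The deposited series matrix has 1 value for each probe and array, read here as the log10 ratio of animal to pool. The authors' scanner, background treatment, normalization and genome build were not given in the sources used here. Base and direction were settled from the data. The Y-linked Eif2s3y was above the pool in 113 of 248 animals at a median of 0.331, near the log10 of 0.341 that a pool with that share of males gives. Values end at -2 and 2. Array medians ran from -0.00627 to 0.0250, and whether arrays had been centred is not known. Intensities were not used, so signal over background is unknown. For 1 array the title and source name differ, and the source name was used.

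Of 23388 probes 13645 had 1 symbol, 48 several and 9695 none listed, per the platform annotation. Probes of 1 gene were averaged where measured on at least 90% of arrays (13444 probes, 11485 genes), with no missing value for Smpd1 or Apbb1. Symbols, and the order of 10868 placed genes, came from RefSeq GRCm38.p6. limma 3.58.1 in R 4.3.3 fitted every gene on the levels of the members, checked on simulated data. Correlations and permutation tests (100000 resamples, two-sided) used numpy 2.4.6 and scipy 1.17.1. Genes were named by rule: the pair, called neighbours, the 10 genes most like each member, and in each list the 5 genes (in marker lists 2) of largest r, except where the text says otherwise. The members, lists and rules were chosen with earlier results of these data known. No columns were left unmapped.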

Additional observations from a re-analysis of the deposited data

How the results depend on the processing

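No paired analysis was possible because all animals form 1 group with 1 array each. Each member has 1 probe, so the alternative by single probe gave no other value. Component settings other than 5, and the setting without the 9 animals of low Smpd1, were chosen after seeing the data.

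The r of Smpd1 with Apbb1 was 0.809 with animal 144 included, 0.782 with 1 principal component as covariate, 0.364 with 5, 0.0834 with 10 and 0.170 with 20. Counts of called genes, in the order Smpd1, Apbb1, Smpd1 given Apbb1 and Apbb1 given Smpd1, were 3715, 3632, 2520 and 2499 among genes of at least the median SD, 2089, 2375, 2105 and 2409 with 10 components, and 696, 925, 729 and 948 with 20. Smpd1 given Apbb1 had 2245 calls among the lower animal numbers and Apbb1 given Smpd1 2769 among the higher. Called neighbours numbered 9 for each member among the lower numbers, where 49.7% of all genes were called with Smpd1 and 52.3% with Apbb1. For Smpd1 they were 10 of 20 and 26 of 50 in narrower and wider windows, against 64.4% of all genes. With 5 components 9 neighbours and 11 APP partners were called with Apbb1, against 44.5% of all genes. Above the median SD 8 and 7 of the 13 neighbours were called, against 64.7% and 63.3% of all genes there. In that setting 27 and 23 of 32 lysosomal genes and 8 and 8 of 14 sphingolipid genes were called. The counts above the median SD are lower because fewer genes were tested. The cause of the other changes was not tested.

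Of 122 coefficients of named genes (log10 units per SD of the member), 67 kept their sign and call with 5 components. A further 25 kept their sign but were no longer called. The other 30 changed sign. With Smpd1 these were Trim30a 0.0142, Trim6 -0.0133, Olfr649 0.000473, Tpp1 -0.0382, Gvin1 0.00731, Olfr695 0.0110, Atp6v0a1 -0.0101, Smpdl3a 0.0173, Aplp1 -0.0190, Apba2 -0.00466, Gjb6 0.00816, Aspa 0.00755, Csf1r -0.0354, Hbb-b1 0.0269, Calb1 0.0223 and Gabra6 0.140. With Apbb1 they were Usp17la 0.00126, Trim30a 0.0115, Trim6 -0.00911, Tpp1 -0.0564, Olfr694 0.000232, Olfr695 0.0144, Atp6v0a1 -0.0274, Smpdl3a 0.0310, App 0.00697, Aspa 0.0189, Csf1r -0.0293, Hbb-b1 0.0295, Hbb-b2 0.0402 and Gabra6 0.0697. With animal 144 included, Cnga4 (0.0181), Snap25 (0.0180), Gjb6 (0.00228) and Calb1 (0.00590) turned positive with Apbb1. Among the lower animal numbers Olfr694 was 0.00145 with Smpd1 and 0.00386 with Apbb1. On probes measured on every array Olfr707 was -0.00143 with Smpd1, and without the low Smpd1 animals Olfr649 was 0.00214. No sign changed under the other settings run for these coefficients, among them quantile normalization, median and MAD scaling and ranks over animals. Calls were lost there, 12 with quantile normalization, 12 with median and MAD scaling and 9 with ranks. Without the 12 arrays of largest spread 13 were lost, and among the higher animal numbers 14. Among the lower animal numbers 19 calls were lost with the sign kept.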
